A study of Homo sapiens with 8 samples.

Results

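The nuclear genes that encode the subunits of oxidative phosphorylation were followed in LNCaP cells, an established line from a human prostate cancer metastasis that grows with androgen receptor activity. Members were chosen by symbol alone: NDUFA, NDUFB, NDUFC, NDUFS or NDUFV followed by a number, SDHA to SDHD, every symbol that starts with UQCR, with COX4 to COX8 or with ATP5, and no pseudogene. The rule gave 84 genes of the 28850 tested, with 36 genes of complex I, 4 of complex II, 8 of complex III, 17 of complex IV and 19 of complex V. The cells carried 30 nM siRNA, either directed against GATA2 (siGATA2) or scrambled (siControl), and total RNA was taken 72 h after transfection from 4 biological replicates per group. The cells were not otherwise edited or treated according to the labels, and the knockdown is transient and covers a mixed population of transfected cells. Each replicate was measured on a one-colour Agilent array, whose number of 4 per group limits the precision of every value.

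Oxidative phosphorylation takes place in the inner mitochondrial membrane. Complex I (NADH dehydrogenase) and complex II (succinate dehydrogenase, which also belongs to the TCA cycle) pass electrons to ubiquinone, complex III (the cytochrome bc1 complex) passes them to cytochrome c, and complex IV (cytochrome c oxidase) passes them to oxygen. Complexes I, III and IV pump protons, and complex V (ATP synthase) makes ATP as the protons flow back. All complexes except II also hold subunits encoded by mitochondrial DNA, so nuclear and mitochondrial genes have to supply matching parts. Prostate epithelium is known for an unusual use of citrate, which secretory cells export rather than oxidise, and prostate cancer cells are known to oxidise more of it.

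Levels below are log2 processed signals after quantile normalization, from the brightest probe of a gene, and a difference is the mean of the arrays labelled siGATA2 minus the mean of those labelled siControl. A gene was called where its adjusted p from limma, with Benjamini-Hochberg adjustment over all genes tested, was under 0.05. The signal of GATA2 itself was 12.61, 12.54, 11.57 and 11.40 on siGATA2 arrays 1 to 4 and 11.74, 11.28, 11.10 and 11.29 on siControl arrays 1 to 4. It was therefore not lower on the arrays labelled siGATA2 (log2 difference 0.68, SE 0.312, adjusted p = 0.154 from limma), and every direction given here rests on the labels of the arrays. The arrays differed in quality, with 34459 to 37033 probes well above background on the siGATA2 arrays and 28560, 34895, 24438 and 34091 on siControl arrays 1 to 4. SiControl array 1 also stood apart in its E1A spike-in signal, with a mean log2 of 11.13 against 13.45 to 13.83 on the other arrays. Luminal prostate markers were well above background on all 8 arrays for 6 of 6 genes, with means of 12.14 to 17.01, while the basal, neuroendocrine and endothelial markers tested were at 3.27 to 4.70. The leukocyte marker PTPRC, at a mean of 8.54, and the fibroblast marker COL1A1, at 9.09 (DCN at 5.17), were well above background on all 8 arrays, and PTPRC was higher by 0.87 (adjusted p = 0.00138 from limma). The part of these markers in the results on the subunit genes was not tested. In such bulk RNA, a smaller number of cells of a kind and less RNA per cell cannot be told apart.

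The subunit genes that were called were mainly higher and changed by less than 2-fold, and NDUFA5, of complex I, fell by more than all other members. Of the 84 members, 21 were called higher on the arrays labelled siGATA2, 3 were called lower and 60 were not called. Over all genes tested, 12.3% were called higher and 14.2% lower. Among the 5359 genes with a mean log2 signal of at least 12, where 80 of the members lay, 18.2% were called higher and 21.4% lower. The rises were small, at 0.43 to 0.77 on the log2 scale (1.35-fold to 1.70-fold), and none reached 2-fold, which 4.52% of all genes did with a call. Of the falls, only that of NDUFA5 reached 2-fold, against 7.13% of all genes. The 4 arrays of a group did not overlap with those of the other in 34 members on the higher side and in 3 on the lower side, against 16.2% and 16.5% of all genes. Among the 5359 genes with a mean log2 signal of at least 12, these numbers were 1283 and 1376, larger shares than over all genes. The median difference over the members was 0.24, with 59 of 84 above 0, and over all genes it was 0.09.

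These counts depended on how the arrays were scaled. With each array scaled to its 75th percentile in place of quantile normalization, 3 members (NDUFA13, NDUFB4 and SDHA) were called higher and 2 (NDUFA5 and ATP5MC1) lower, against 14.1% and 13.3% of all genes. Scaled to the E1A spike-in probes, a set of control RNAs added in known amounts, the arrays gave 0 members called higher by limma (also 0 at an unadjusted p under 0.05) and 1, NDUFA5, called lower (6 unadjusted), against 0.478% and 6.59% of all genes. The share of higher genes among the called members was thus 87.5% after quantile normalization, 60% with the 75th percentile and 0% with the spike-ins. Spike-in scaling moved the median of all genes to -0.43 and that of the members to -0.53. Without siControl array 1, whose E1A signal was low, these medians were -0.01 and -0.16. Set against the median of all genes, the members were higher by 0.15 after quantile normalization. They were lower by 0.10 on the 75th percentile (-0.10) and by 0.10 on the spike-ins (-0.10). Both of these scalings add a constant to each array and shift genes alike, which makes the values nearly equal by construction. The direction of the set as a whole thus turned between quantile normalization and scaling by a constant. NDUFA5 was called lower in 25 of 25 other settings.

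**Figure D1:**
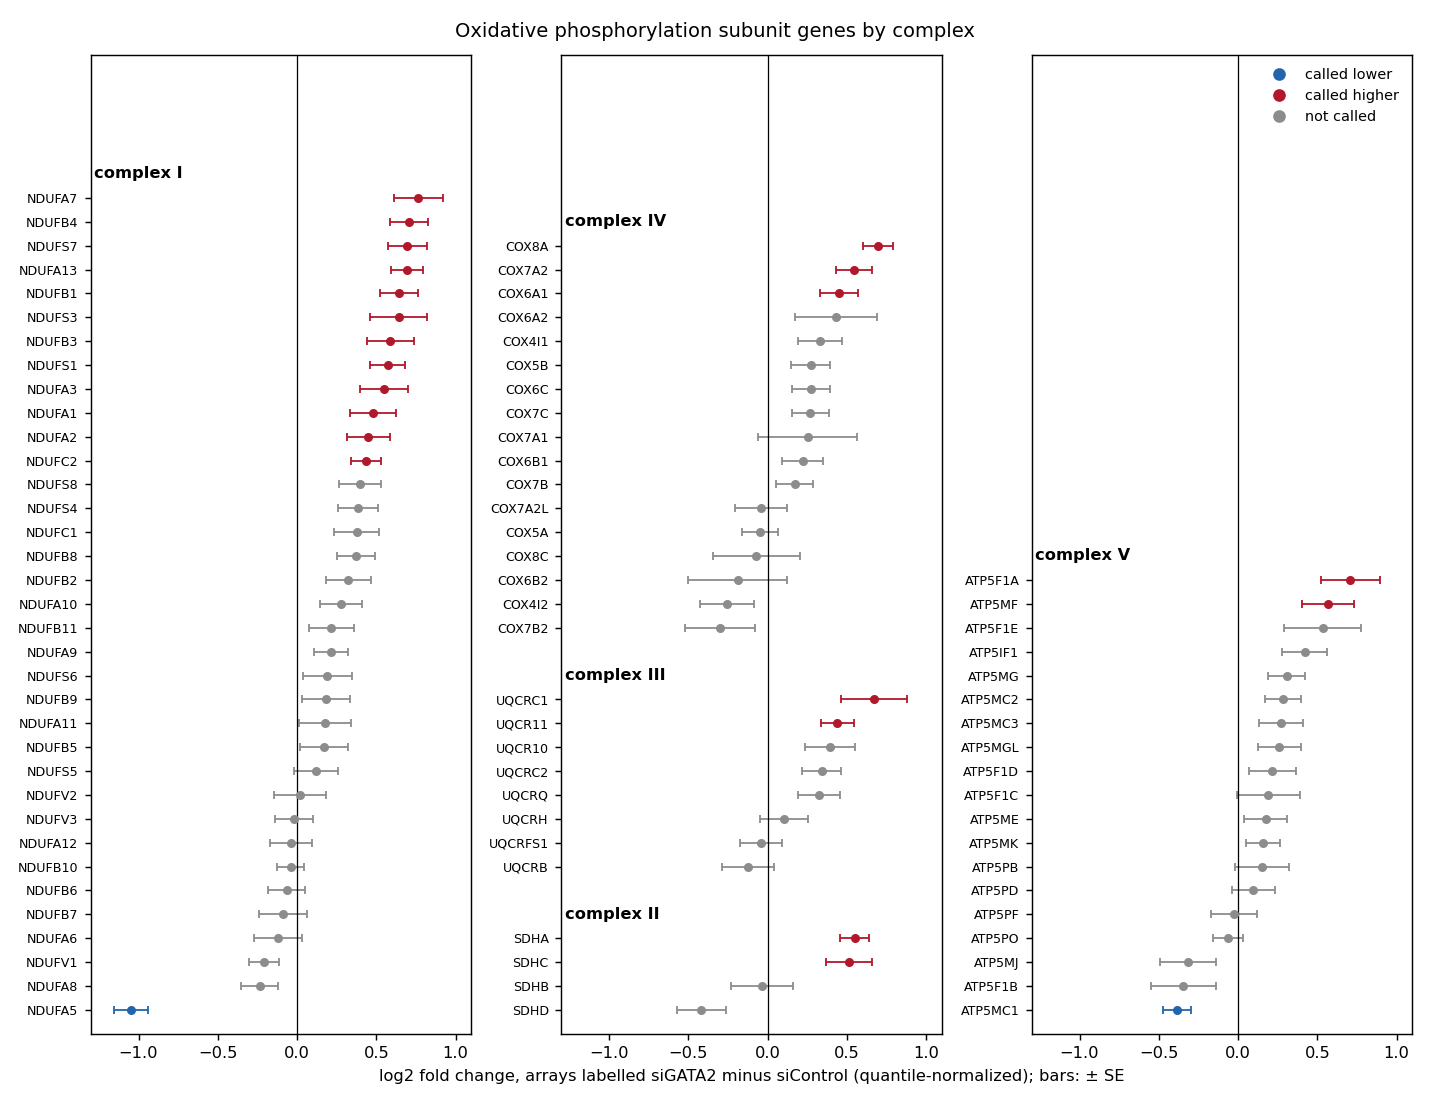
Log2 differences (arrays labelled siGATA2 minus siControl, horizontal axis) of 83 of the 84 subunit genes after quantile normalization, in panels by complex; points are limma estimates, bars are standard errors and colours are calls at an adjusted p under 0.05. NDUFA5 lies alone at -1.05, while the 21 genes called higher lie between 0.43 and 0.77.

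Complex I had both the deepest fall and most of the rises. NDUFA5, an accessory subunit of the arm that reaches into the matrix, read 13.00, 12.90, 13.15 and 13.19 on siGATA2 arrays 1 to 4 and 14.02, 14.12, 14.22 and 14.07 on siControl arrays 1 to 4. The groups were separated by more than the whole range of either. The mean was 13.06 ± 0.133 (SD, n = 4) against 14.11 ± 0.0845 (SD, n = 4), a log2 difference of -1.05 (SE 0.107, adjusted p = 0.000277 from limma), or 2.07-fold lower. It ranged from -1.73 to -0.99 over the 25 other settings, with a highest adjusted p of 0.0314 from limma.

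The core subunits of complex I hold most of the path of the electrons from NADH to ubiquinone, and those described here did not move as a block. NDUFS7, NDUFS3 and NDUFS1 were called higher, by 0.70 (SE 0.123), 0.64 (SE 0.181) and 0.57 (SE 0.111) on the log2 scale. NDUFS7, which holds the last iron-sulfur cluster before ubiquinone, read 15.01, 15.04, 15.29 and 15.27 on the siGATA2 arrays and 14.25, 14.48, 14.54 and 14.57 on the siControl arrays. All 4 siGATA2 arrays were above all siControl arrays. NDUFS3 read 13.74 on siControl array 1 against 14.37 to 14.42 on the other siControl arrays, and its difference without that array was 0.48 in place of 0.64. NDUFS8 was not called at 0.40 (adjusted p = 0.0632 from limma), nor were NDUFV2 at 0.02 and NDUFV1 at -0.21. NDUFV1, the flavin subunit that takes electrons from NADH, nevertheless had every siGATA2 array (15.57 to 15.68) below every siControl array (15.78 to 15.99).

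Among the 29 accessory subunits of complex I, which surround the core and are needed for its assembly and stability, 9 were called higher, 1 lower and 19 were not called. Over all genes, 12.3% were called higher and 14.2% lower, and 18.2% and 21.4% of genes with a mean log2 signal of at least 12. With the 75th percentile, 2 members of complex I were called higher and 1 lower, against 14.1% and 13.3% of all genes. NDUFA7 had the largest rise of all members: 16.60, 16.67, 17.06 and 17.04 on the siGATA2 arrays against 16.23, 16.03, 16.17 and 15.87 on the siControl arrays, a log2 difference of 0.77 (SE 0.152, adjusted p = 0.0075 from limma). NDUFB4, of the membrane arm, read 18.36, 18.43, 18.64 and 18.72 against 17.76, 17.94, 17.87 and 17.75, a difference of 0.71 (SE 0.118, adjusted p = 0.00317 from limma). NDUFA13, also known as GRIM-19 and as a partner of STAT3, read 15.95, 16.05, 16.13 and 16.10 against 15.21, 15.41, 15.46 and 15.38, a difference of 0.69 (SE 0.101, adjusted p = 0.00165 from limma). In each of these genes the groups did not overlap. NDUFB4 and NDUFA13 were called higher with the 75th percentile too, at 0.48 and 0.52, while NDUFA7 was not (0.57, adjusted p = 0.087 from limma). The other 6 called higher, NDUFB1, NDUFB3, NDUFA3, NDUFA1, NDUFA2 and NDUFC2, which were named after their values were seen, lay between 0.43 and 0.64. Of these, NDUFB1 and NDUFC2 kept their call whichever array was left out, and NDUFA1 and NDUFA2 lost it for 7 of the 8 arrays. The 22 complex I members not called ranged from -0.23 to 0.40, and 6 of them did not overlap on the higher side. In all 36 members of complex I, 18 did not overlap on the higher side and 2 on the lower, against 16.2% and 16.5% of all genes. Of the 5359 genes with a mean log2 signal of at least 12, it was 1283 and 1376.

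**Figure D2:**
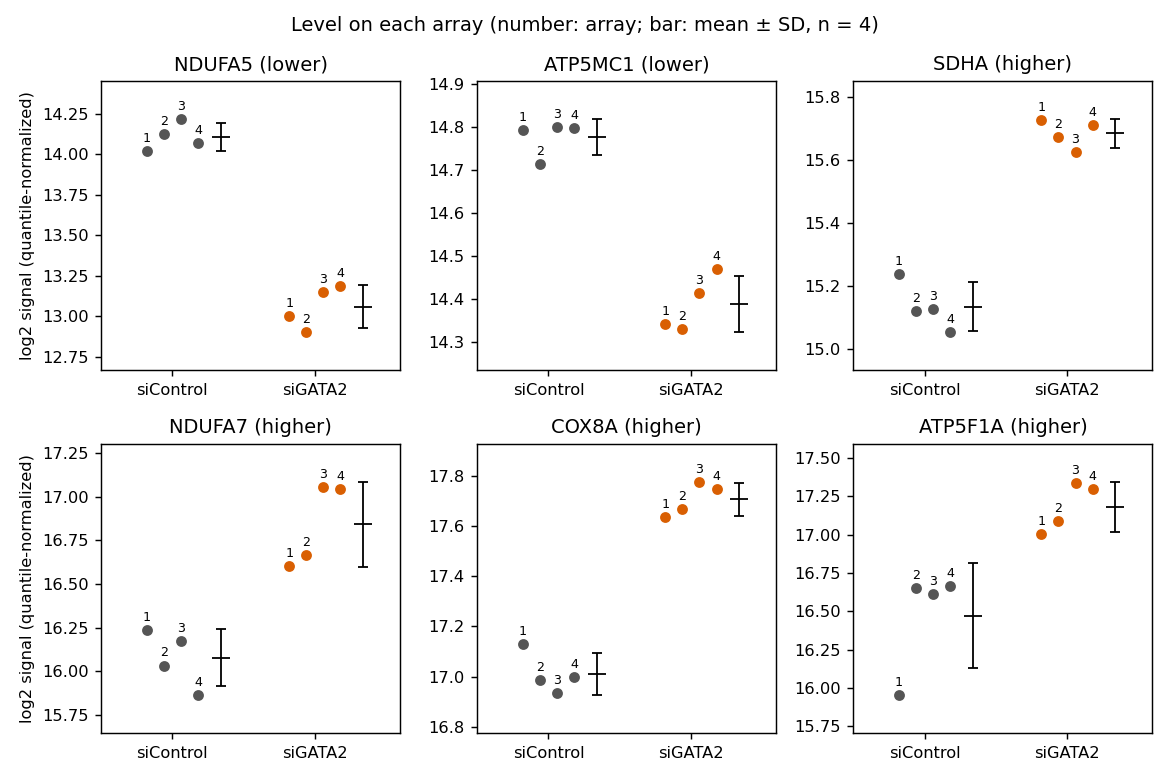
Level of 6 subunit genes on each array (log2 signal, quantile-normalized, vertical axis with a range of its own for each gene), with siControl at left and siGATA2 at right; numbers are arrays and bars are the mean ± SD (n = 4). The NDUFA5 and ATP5MC1 groups are apart, while siControl array 1 of ATP5F1A (15.96) lies below the other siControl arrays.

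In complex II the subunits split. SDHA, the flavoprotein that oxidises succinate, read 15.73, 15.67, 15.63 and 15.71 on the siGATA2 arrays and 15.24, 15.12, 15.13 and 15.05 on the siControl arrays. The groups were far apart for their spread, with a log2 difference of 0.55 (SE 0.0912, adjusted p = 0.0031 from limma), and all 4 probes of SDHA were called higher, at 0.55 to 0.72. SDHC, one of the membrane anchors, was called higher by 0.52 (SE 0.144, adjusted p = 0.0324 from limma), and without siControl array 1 by 0.47 and not called (adjusted p = 0.0600). The dimmer probes of SDHC, at 0.78 and 0.48, were not called. With the 75th percentile SDHC was not called either, at 0.37 (adjusted p = 0.236 from limma). SDHD, the other membrane anchor, read 13.47, 13.43, 13.86 and 13.87 on the siGATA2 arrays and 13.81, 14.22, 14.14 and 14.13 on the siControl arrays, and siControl array 1 lay within the siGATA2 range. Its difference of -0.42 was not called (SE 0.155, adjusted p = 0.0872 from limma), and without siControl array 1 it was -0.51 (adjusted p = 0.0435). SDHB, the iron-sulfur protein, was at -0.03 (SE 0.197).

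In complex III, 2 of 8 members (25%) were called higher, against 12.3% of all genes and 18.2% of those with a mean log2 signal of at least 12. By limma 0 were called lower (0 at an unadjusted p under 0.05 too). CYC1, a subunit of this complex that the symbol rule leaves out, was called lower at -0.71 and is described below. The groups did not overlap in 5 members on the higher side and 0 on the lower, against 16.2% and 16.5% of all genes. Of the 5359 genes with a mean log2 signal of at least 12, it was 1283 and 1376. With the 75th percentile 0 members were called in either direction by limma (0 at an unadjusted p under 0.05 too). Of all genes, 14.1% were then called higher and 13.3% lower. UQCRC1, a core protein on the matrix side, read 15.39, 15.46, 15.69 and 15.67 on the siGATA2 arrays and 14.27, 15.00, 15.16 and 15.11 on the siControl arrays. SiControl array 1 was again the lowest, and the log2 difference was 0.67 (SE 0.210, adjusted p = 0.0493 from limma) with it and 0.47 (adjusted p = 0.0244) without it. UQCR11, a small subunit, was higher by 0.44 (SE 0.104, adjusted p = 0.0159 from limma), but by 0.11 with the 75th percentile. UQCRC2, the other core protein, and UQCRFS1, the Rieske iron-sulfur protein, were not called at 0.34 and -0.04. The 6 members not called ranged from -0.12 to 0.39.

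In complex IV, 3 of 17 members (17.6%) were called higher, near the 18.2% of genes with a mean log2 signal of at least 12, and 0 lower by limma (0 at an unadjusted p under 0.05 too). COX8A, a short subunit that spans the membrane, read 17.63, 17.67, 17.77 and 17.75 on the siGATA2 arrays and 17.13, 16.99, 16.93 and 17.00 on the siControl arrays. The difference of 0.69 (SE 0.0947, adjusted p = 0.00117 from limma) was several times the spread within either group. COX7A2 was higher by 0.55 (SE 0.112) and COX6A1 by 0.45 (SE 0.119). COX4I1, COX5A and COX5B, which surround the mitochondrially encoded core, were not called at 0.33, -0.05 and 0.27. The 6 paralogs known mainly from other tissues, COX4I2, COX6A2, COX6B2, COX7A1, COX7B2 and COX8C, were not called and ranged from -0.30 to 0.43. Of these, COX4I2, COX7A1 and COX8C were well above background on all siGATA2 arrays but only on 3, 2 and 2 siControl arrays, at mean log2 signals of 4.5 to 5.5.

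In complex V, 2 of 19 members (10.5%) were called higher and 1 (5.26%) lower, and 16 were not called. Neither share was above that of all genes tested (12.3% and 14.2%). ATP5F1A and ATP5F1B encode the alpha and beta subunits that alternate in the catalytic head. ATP5F1A read 17.00, 17.09, 17.34 and 17.30 on the siGATA2 arrays and 15.96, 16.65, 16.61 and 16.66 on the siControl arrays, a log2 difference of 0.71 (SE 0.185, adjusted p = 0.0248 from limma). ATP5F1B read 16.13, 16.00, 16.05 and 16.01 on the siGATA2 arrays and 15.76, 16.59, 16.58 and 16.65 on the siControl arrays, a difference of -0.35 (SE 0.204, adjusted p = 0.258 from limma). In both genes siControl array 1 was the lowest siControl array, and in ATP5F1B it lay below all siGATA2 arrays too. Without it ATP5F1A was higher by 0.54 (adjusted p = 0.0138 from limma) and ATP5F1B was lower, at -0.56 (adjusted p = 0.00347 from limma).

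The c subunits form the ring that turns in the membrane, and ATP5MC1, ATP5MC2 and ATP5MC3 encode the same mature protein with different targeting sequences. ATP5MC1 read 14.34, 14.33, 14.42 and 14.47 on the siGATA2 arrays and 14.79, 14.71, 14.80 and 14.80 on the siControl arrays, a log2 difference of -0.39 (SE 0.0893, adjusted p = 0.0146 from limma). ATP5MC2 read 16.62, 16.64, 16.94 and 16.87 against 16.54, 16.43, 16.47 and 16.50, and ATP5MC3 17.61, 17.71, 18.07 and 18.04 against 17.44, 17.70, 17.60 and 17.59. These genes were at 0.28 and 0.27 and not called. Of the other members of complex V, ATP5MF was higher by 0.57 (SE 0.163), and ATP5IF1, the inhibitor that blocks ATP hydrolysis, was not called at 0.42 (adjusted p = 0.0675 from limma), although a dimmer probe of it was called higher at 0.56. The 4 peripheral stalk genes, which hold the head still, ranged from -0.06 to 0.15. ATP5MGL, a close copy of ATP5MG, was at 0.26, and how far its probe also reads ATP5MG was not tested.

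Pairs of paralogs were compared within each array, which removes any shift common to an array. In all, 7 pairs were well above background on every array in both genes, and each was tested with an exact two-sided permutation test over the 8 arrays, whose smallest possible p is 0.0286. ATP5MC1 changed by 0.67 less than ATP5MC2 (-0.67) and by 0.66 less than ATP5MC3 (-0.66), and both pairs reached that smallest exact p, with an adjusted p of 0.05 over the 7 pairs. COX7A2 changed by 0.59 more than COX7A2L, a factor of respiratory supercomplexes, and COX7B by 0.47 more than COX7B2, with the same exact p and the same adjusted p. An adjusted p of 0.05 is not under the threshold, and a design of 4 arrays against 4 could not go lower unless more pairs had reached the smallest p. These 4 differences kept their sign in 13 of 13 other settings, including the 75th percentile and the spike-ins. Both of these scalings add a constant to each array, so they give the same within-array difference and are no separate checks. ATP5MC2 and ATP5MC3 differed by 0.01 (exact p = 0.914), COX6A1 and COX6A2 by 0.02 (exact p = 0.943), and COX6B1 and COX6B2 by 0.41 (exact p = 0.171). Over the 13 other settings the difference of COX6A1 and COX6A2 ranged from -0.48 to 0.14, so an equal change of this pair is not settled.

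Promoter stretches are shown for some of the called members with a RefSeq promoter window, to set genes that fell beside genes that rose. Each stretch is the 250 bases before an annotated start in GRCh38.p14, written in the direction of the gene. NDUFA5 lies at chr7:123557819-123558068 on the minus strand and is the most downstream of 3 annotated starts, ATP5MC1 at chr17:48892537-48892786, NDUFS7 at chr19:1383657-1383906, NDUFB4 at chr3:120596086-120596335 and COX8A at chr11:63974370-63974619, all on the plus strand. Capitals mark matches on either strand to the letters searched, which are CGCATGC for NRF1 (a known regulator of respiratory genes; its matches on both strands overlap), CCGGAAG for ETS factors such as GABP, CACGTG for the E-box that MYC can bind, and GATAA for GATA factors.
NDUFA5: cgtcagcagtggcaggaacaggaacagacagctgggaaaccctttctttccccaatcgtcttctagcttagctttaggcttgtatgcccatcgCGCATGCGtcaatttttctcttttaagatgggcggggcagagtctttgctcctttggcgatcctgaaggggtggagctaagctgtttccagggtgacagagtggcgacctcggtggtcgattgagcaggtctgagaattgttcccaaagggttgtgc
ATP5MC1: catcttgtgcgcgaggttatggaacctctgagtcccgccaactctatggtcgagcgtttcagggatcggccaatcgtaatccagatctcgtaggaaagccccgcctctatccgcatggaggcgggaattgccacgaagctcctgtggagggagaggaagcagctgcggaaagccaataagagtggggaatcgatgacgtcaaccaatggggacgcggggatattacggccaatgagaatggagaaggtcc
NDUFS7: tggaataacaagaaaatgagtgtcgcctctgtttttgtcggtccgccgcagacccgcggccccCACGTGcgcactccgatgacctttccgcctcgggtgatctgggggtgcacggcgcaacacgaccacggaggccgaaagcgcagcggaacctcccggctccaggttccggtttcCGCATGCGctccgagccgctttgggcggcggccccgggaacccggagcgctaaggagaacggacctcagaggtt
NDUFB4: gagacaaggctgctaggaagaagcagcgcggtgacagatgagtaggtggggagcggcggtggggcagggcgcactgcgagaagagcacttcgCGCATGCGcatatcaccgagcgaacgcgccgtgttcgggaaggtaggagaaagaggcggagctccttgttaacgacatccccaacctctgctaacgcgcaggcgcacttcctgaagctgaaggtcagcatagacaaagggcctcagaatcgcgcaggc
COX8A: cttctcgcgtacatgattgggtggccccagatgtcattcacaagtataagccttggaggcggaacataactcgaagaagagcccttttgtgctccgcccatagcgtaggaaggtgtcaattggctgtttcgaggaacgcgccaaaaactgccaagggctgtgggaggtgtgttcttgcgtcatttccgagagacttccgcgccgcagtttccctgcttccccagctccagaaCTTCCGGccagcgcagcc

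The NRF1 letters stood before NDUFA5, which fell, and before NDUFS7 and NDUFB4, which rose. They began 157 bases before the start of NDUFA5, 158 before that of NDUFB4 and 74 before that of NDUFS7, which also held an E-box 187 bases before its start. COX8A held an ETS match 18 bases before its start, and none of the letters searched were found in the stretch of ATP5MC1. Over windows from 250 bases before to 50 after a start, 69 of the 84 members had 82 windows. The NRF1 letters were in 15 of the 82 (18.3%) against 3.91% of all 35116 windows, and the ETS letters in 22 (26.8%) against 10.3%. By call, the NRF1 letters were in 3 of 21 windows (14.3%) of members called higher and 1 of 4 (25%) of those called lower. They were in 11 of 57 (19.3%) of members not called, so they did not mark the members that were called. The E-box was in 7 (8.54%) against 7.26% and the GATA letters in 12 (14.6%) against 22.7%. For members called higher, called lower and not called, the ETS letters were in 8 of 21, 0 of 4 and 14 of 57 windows. The E-box was in 3, 1 and 3 of these windows and the GATA letters in 2, 2 and 8. The 4 windows of members called lower came from 2 genes, and no difference by call was tested. A match says only that the letters are there.

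The arrays of one group were not alike for these genes. In 78 of the 84 members siGATA2 arrays 1 and 2 both lay below siGATA2 arrays 3 and 4, which held for 46.0% of all genes, and the median gap was 0.35 against 0.10 over all genes. Set against the siControl mean, the median member was at 0.07 and 0.09 on siGATA2 arrays 1 and 2 and at 0.43 and 0.41 on arrays 3 and 4. All 5 complexes showed this order, with complex III at 0.08, 0.17, 0.52 and 0.50 and complex V at 0.02, 0.01, 0.42 and 0.38. Titles give siGATA2 arrays 1 and 2 and siControl array 1 the letters A and B and the other arrays the letters D to G, and what the letters stand for is not given. Within letters A and B the median member differed by 0.13 (56 of 84 above 0), with a single siControl array, and within letters D to G by 0.40 (71 of 84 above 0), against 0.05 and 0.11 for all genes. The 24 called members had the same sign within both sets of letters, which their choice on these same arrays made likely. With the letters as a block, chosen after the data were seen, 46 members were called higher and 5 lower, against 24.9% and 20% of all genes.

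**Figure D3:**
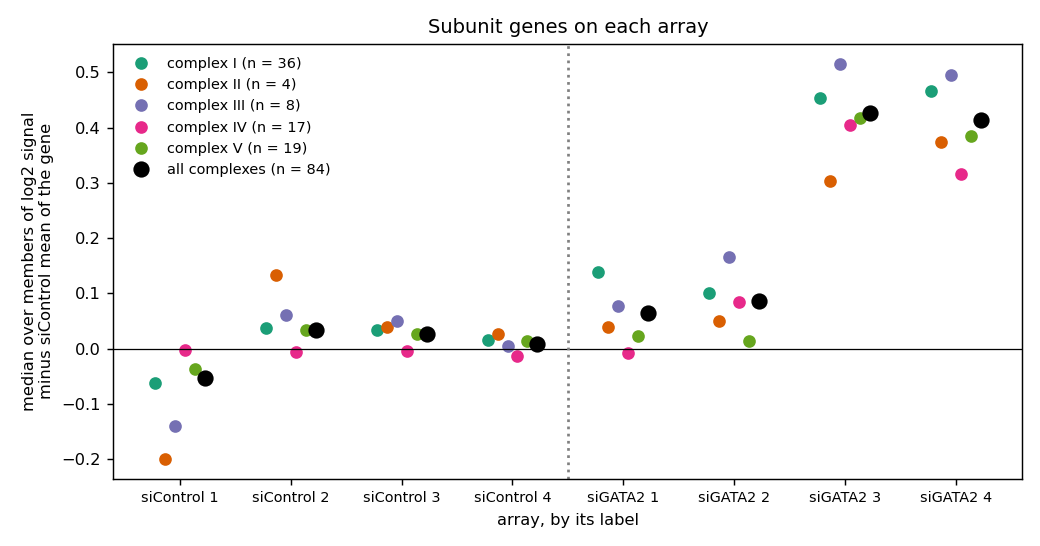
Median over the members of a complex of the log2 signal minus the gene's siControl mean (vertical axis) on each array (horizontal axis); the black point is the median over all 84 members. SiGATA2 arrays 3 and 4 are at 0.43 and 0.41, and arrays 1 and 2 at 0.07 and 0.09 are close to the siControl arrays, which lie between -0.05 and 0.03.

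SiControl array 1 lay below all other siControl arrays in 46 members and above them in 22, with gaps of -0.85 to 0.77. Without it 16 members were called higher and 5 lower, and the share of all genes in this setting is not given. The median member was then at 0.22 against 0.08 for all genes. The lower ones included NDUFA5, ATP5MC1, SDHD and ATP5F1B. NDUFA1, NDUFA2, NDUFA3, SDHC and ATP5MF were no longer called. Other arrays mattered as well when left out singly, and a fit with 7 arrays has fewer degrees of freedom. NDUFA5, NDUFA7, NDUFA13, NDUFB1, NDUFB4, NDUFC2, NDUFS1, NDUFS7, SDHA, COX7A2 and COX8A kept their call whichever array was left out. The highest adjusted p from limma was 0.0513 for ATP5MC1 and 0.0560 for UQCR11, both without siControl array 4. It was 0.0637 for ATP5F1A without siGATA2 array 3, which also lost its call without siGATA2 arrays 2 and 4. It was 0.0776 for COX6A1, 0.0803 for SDHC, 0.0811 for NDUFS3, 0.0877 for ATP5MF and 0.109 for UQCRC1, which lost their calls without 5 or 6 of the 8 arrays.

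Genes that act beside the subunits were read from lists. Of 15 regulators of mitochondrial biogenesis, 7 (46.7%) were called lower and 1 (6.67%) higher, against 14.2% and 12.3% of all genes, with a median of -0.31. The counts were the same with the 75th percentile, and with the spike-ins 4 were called lower and 0 higher by limma (7 and 0 at an unadjusted p under 0.05). Of all genes, 13.3% were called lower and 14.1% higher with the 75th percentile, and 6.59% and 0.478% with the spike-ins. TWNK, the helicase that unwinds mitochondrial DNA, read 7.76, 7.72, 8.16 and 7.93 on the siGATA2 arrays and 9.43, 9.99, 9.85 and 10.04 on the siControl arrays, a log2 difference of -1.94 (SE 0.171, adjusted p = 0.000139 from limma). The PGC-1 coactivators, which raise transcription of respiratory genes, were all called lower: PPRC1 at -1.22, PPARGC1B at -1.06 and PPARGC1A at -1.92. PPARGC1A was dim, with signals of 2.22 to 3.81 and 4.33 to 5.25, well above background on 2 arrays of each group. TFAM and TFB2M, which transcribe mitochondrial DNA together with its polymerase, were at -0.73 and -0.66, ESRRA, a nuclear receptor partner of PGC-1, at -0.57, and the polymerase POLRMT at 0.27, not called. NRF1 itself was called higher at 0.71 (SE 0.186, adjusted p = 0.0249 from limma), with siControl array 1 (7.86) below the other siControl arrays (8.41 to 8.69), and its call was kept in 16 of 25 other settings. MYC, a broad activator of nuclear-encoded mitochondrial genes among others, was at -2.75 (SE 0.111, adjusted p = 1.32e-05 from limma).

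**Figure D4:**
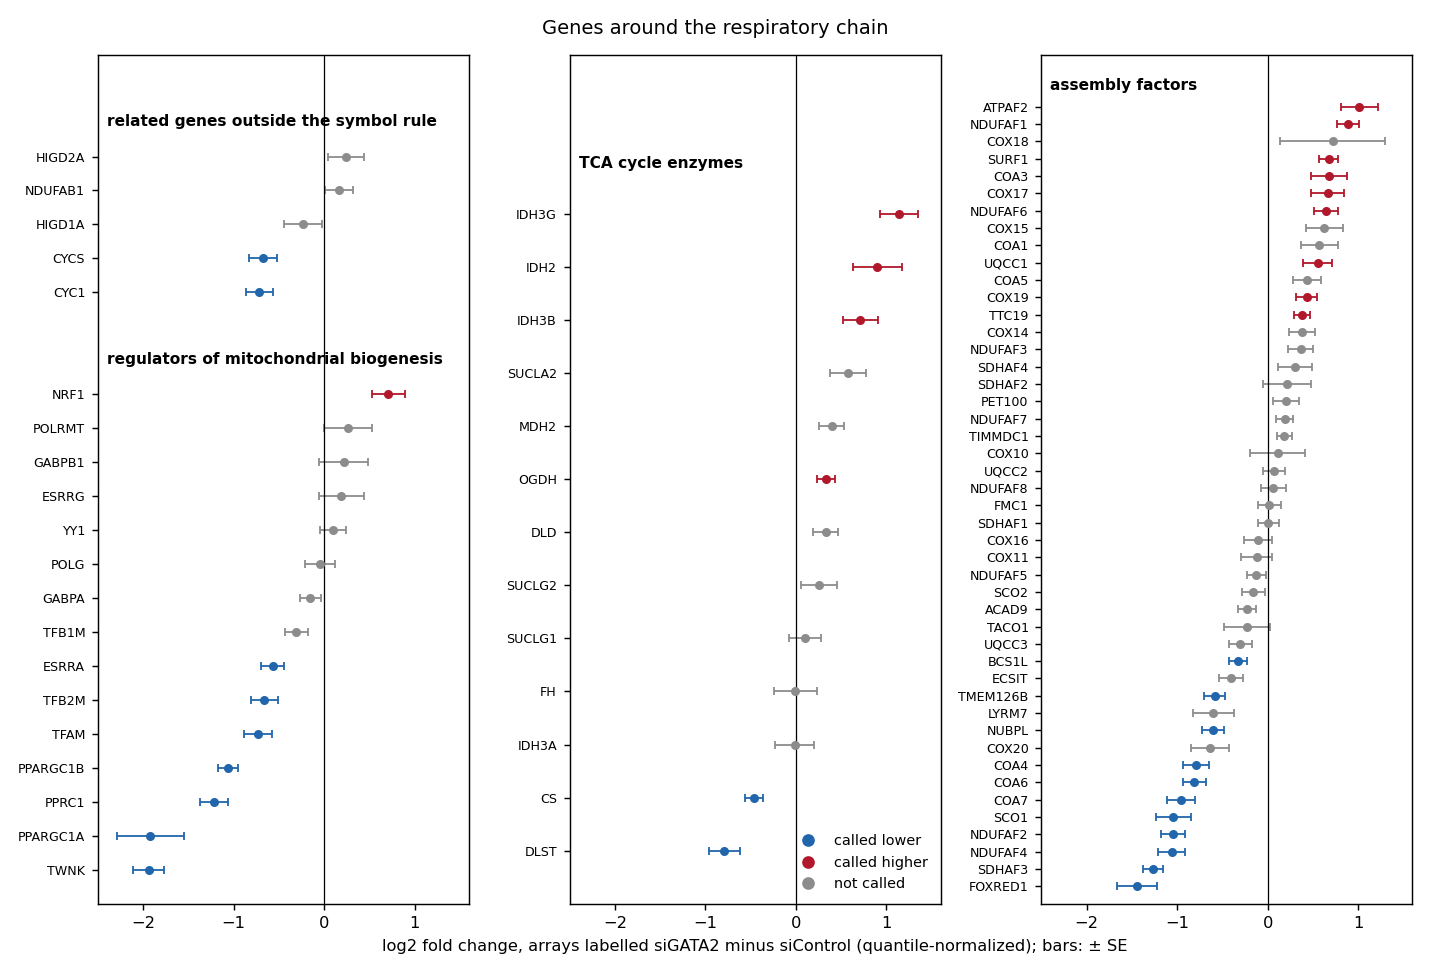
Log2 differences (arrays labelled siGATA2 minus siControl, horizontal axis) of 15 regulators, 5 related genes, 13 of the 14 TCA cycle enzymes and 46 assembly factors after quantile normalization; points are limma estimates, bars are standard errors and colours are calls at an adjusted p under 0.05. Regulators lie mainly left of 0 (7 called lower, 1 higher), whereas assembly factors lie on both sides (11 lower, 9 higher).

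The electron carriers listed outside the symbol rule were called lower. CYC1, the cytochrome c1 subunit of complex III that the symbol rule does not take in, read 14.71, 14.77, 14.43 and 14.37 on the siGATA2 arrays and 14.96, 15.37, 15.40 and 15.40 on the siControl arrays, a log2 difference of -0.71 (SE 0.152, adjusted p = 0.0103 from limma). CYCS, which is cytochrome c, was at -0.67 (SE 0.153, adjusted p = 0.0140 from limma). The other 3 of the 5 related genes tested were not called. The 2 called lower (40%) stand against 14.2% of all genes and 21.4% of those with a mean log2 signal of at least 12. COXFA4, the current symbol of the gene formerly called NDUFA4 and now placed in complex IV, was called higher at 0.70 (SE 0.168, adjusted p = 0.0172 from limma), at 0.40 with the 75th percentile and -0.21 with the spike-ins. None of the 13 mitochondrially encoded subunits could be tested.

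Assembly factors, the chaperones and cofactor enzymes that build the complexes, were called lower in 11 (23.9%) and higher in 9 (19.6%) of 46, with a median of 0.04. These shares were near those of genes with a mean log2 signal of at least 12 (21.4% lower and 18.2% higher), so the counts are no result about these factors. With the 75th percentile the calls were 11 lower and 6 higher, against 13.3% and 14.1% of all genes. FOXRED1, for complex I, had the largest fall, with 9.13, 9.04, 8.71 and 8.84 on the siGATA2 arrays and 9.74, 10.51, 10.64 and 10.60 on the siControl arrays, a log2 difference of -1.44 (SE 0.220, adjusted p = 0.00207 from limma). Further falls past 2-fold, named after their values were seen, were SDHAF3 for complex II at -1.26, NDUFAF4 and NDUFAF2 for complex I at -1.06 and -1.05 and SCO1, which carries copper to complex IV, at -1.04. The largest rise was that of ATPAF2, for the head of complex V, at 1.01 (SE 0.200, adjusted p = 0.00724 from limma). Factors for complex I went both ways, since NDUFAF1 was called higher at 0.89.

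Of the 14 TCA cycle enzymes, 5 (35.7%) were called higher and 2 (14.3%) lower, against 12.3% and 14.2% of all genes, with a median of 0.33. Among genes with a mean log2 signal of at least 12, the shares were 18.2% higher and 21.4% lower. With the 75th percentile 3 were higher and 2 lower, against 14.1% and 13.3% of all genes. IDH3G, a subunit of the NAD-dependent isocitrate dehydrogenase, read 13.88 to 14.35 on the siGATA2 arrays and 12.40, 13.19, 13.15 and 13.21 on the siControl arrays, a difference of 1.14 (SE 0.214, adjusted p = 0.00569 from limma). DLST, of the 2-oxoglutarate dehydrogenase complex, fell by 0.79 on the log2 scale (-0.79, SE 0.171, adjusted p = 0.0109 from limma). CS, citrate synthase, which was named after its values were seen, was called lower at -0.46 (SE 0.0994). With the spike-ins 0 of the 14 were called by limma, and 2 were lower and 0 higher at an unadjusted p under 0.05. Of all genes, 6.59% were called lower and 0.478% higher with the spike-ins.

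**Figure D5:**
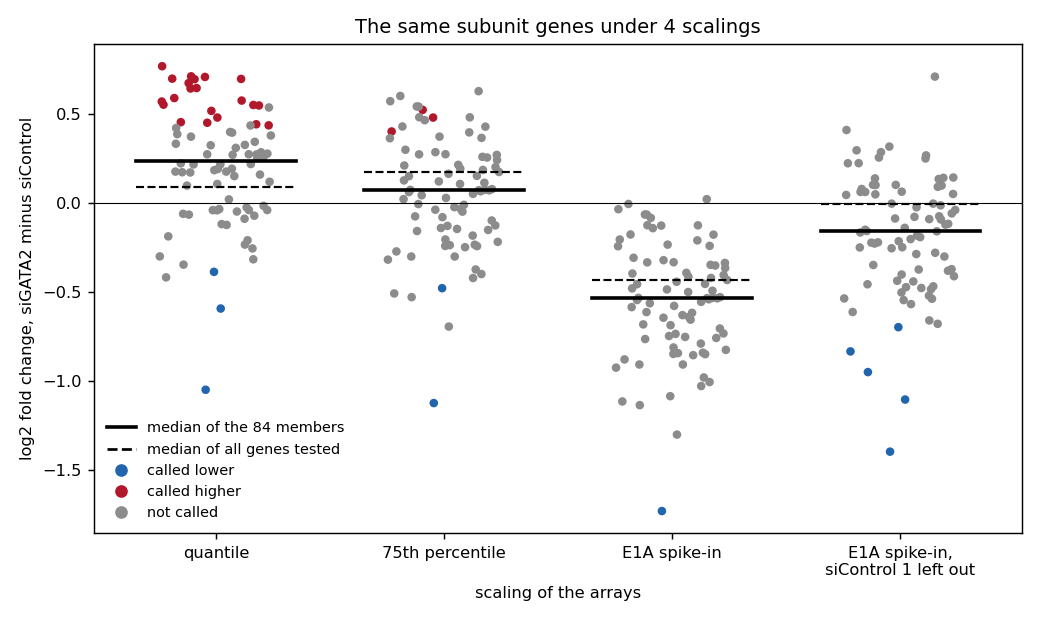
Log2 differences of the 84 members (vertical axis) under each scaling of the arrays (horizontal axis); each point is a gene, coloured by its call, the solid line is the median of the members and the dashed line that of all genes tested. The members' median lies above that of all genes after quantile normalization (0.24 against 0.09) and below it with the 75th percentile (0.07 against 0.17), with the spike-ins (-0.53 against -0.43) and with the spike-ins without siControl array 1 (-0.16 against -0.01). The 75th percentile and the spike-ins add a constant to each array, so the gap between the medians is nearly equal in both by construction.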

How the data were processed

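RNA of LNCaP cells was profiled on 8 one-colour arrays, 4 labelled siGATA2 and 4 siControl. The sample labels gave the groups and replicate numbers. Spot intensity was deposited as written by Agilent Feature Extraction 11.0.1.1, per the labels' processing notes, and its background-corrected processed signal and flags were read. The authors also deposited log2 values, used as an alternative. In their methods the processed signal was quantile-normalized. The array design named in the files differs from that in the methods.

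Spots marked as outliers were dropped, log2 processed signals were averaged over the spots of a probe and the 8 arrays were quantile-normalized with limma 3.58.1 in R 4.3.3. Names came from a RefSeq table of GRCh38.p14, and unannotated probes and those with a mean log2 below 3 were dropped. The brightest probe stood for a gene. All 84 subunit genes with a named probe passed, 16 of them had more than 1 probe, and 81 were well above background on all 8 arrays. Differences were tested with lmFit and eBayes across all 28850 genes with Benjamini-Hochberg adjustment, in place of the methods' t-test. On simulated data for this comparison, with 200 of 28850 genes changed, 47% of 2-fold and 78% of 4-fold changes were recovered and 6.02% of calls were false. Paralog pairs were compared by exact permutation tests in scipy 1.17.1, and figures were drawn with matplotlib 3.10.9.

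The members, gene lists, motifs and tests were chosen with earlier results of these data known. Named were, in each complex, the 3 called genes with the largest fall and rise, core subunits, paralogs, SDHA to SDHD, ATP5IF1, of each list the called gene with the largest fall and rise, PPARGC1A, MYC and GATA2. A few of the genes this names or counts are not reported here one by one. The alternatives changed the scaling (75th percentile, E1A spike-ins), the background correction (normexp with an offset of 50) or the values (the deposited log2 matrix), or used other filters and probe choices, the methods' t-test, an intensity trend, array weights, blocks, and leaving out arrays. No block by slide could be fitted, since the arrays shared 1 slide. Precision is limited by the number of arrays and by signal over background.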

Additional observations from a re-analysis of the deposited data

Results flagged for a closer look

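Of 108 groups of 4 arrays examined, 11 held an array far from the other 3 of its group, where chance gives about 1 in 20. The gap to the nearest array, as a share of the group's range, is given for each. SiControl array 1 was the lowest for ATP5F1A (0.929), ATP5F1B (0.926), NDUFS3 (0.918), NDUFS8 (0.957), SDHB (0.946), UQCRFS1 (0.968) and the median over complex V (0.925). SDHB, for instance, read 13.43 there and 14.12 to 14.16 on the other siControl arrays. SiControl array 1 was the highest for COX6A1 (0.851), COX6A2 (0.885) and ATP5IF1 (0.843). SiControl array 2 was the lowest for ATP5MC1 (0.904), at 14.71 against 14.79 to 14.80.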

How the results depend on the processing

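Scaling to the E1A spike-ins gave a median log2 difference of the members of -0.53, with 1 member called lower and 0 higher, and with siControl array 1 also left out (added after seeing the data) the median was -0.16 with 5 lower and 0 higher. All 21 genes called higher changed sign with the spike-ins, to UQCR11 at -0.49, COX6A1 at -0.46, COX7A2 at -0.35, NDUFC2 at -0.34, NDUFA1 at -0.33, NDUFA2 at -0.32, ATP5MF at -0.24, NDUFA3 at -0.24, SDHC at -0.23, COX8A at -0.21, SDHA at -0.21, NDUFB3 at -0.18, NDUFB1 at -0.14, NDUFB4 at -0.13, NDUFS1 at -0.13, ATP5F1A at -0.13, NDUFA13 at -0.084, NDUFS3 at -0.066, UQCRC1 at -0.065, NDUFA7 at -0.036 and NDUFS7 at -0.0065; without siControl array 1, NDUFA2 at -0.0045 and UQCR11 at -0.014 did so. With all 8 arrays on the spike-ins, the SEs of these 21 genes were 0.450 to 0.521 and none was called (adjusted p from 0.681 to 0.997 from limma). Their signs there are therefore not told apart from 0. The 75th percentile gave 2 lower and 3 higher. Array weights gave 6 lower and 34 higher, slide row as a block 1 and 12, siControl arrays 2 and 4 only 3 and 12, and the title letters as a block, chosen after the data were seen, 5 and 46. Arrays share only replicate numbers, as the deviations of same-numbered arrays correlated at 0.54, -0.31, 0.17 and 0.22 and not every array correlated best with its own number. The replicate block gave 2 lower and 14 higher, and with siControl array 1 left out, chosen after the data were seen, 2 and 1. Without each array in turn, 1 to 5 members were called lower and 11 to 23 higher, the median was 0.18 to 0.30, and 11 of the 24 called members kept their call throughout. The least calls came without siControl array 4 (1 lower, 11 higher) and siControl array 2 (2 and 11). Over all genes, 12.3% were called higher after quantile normalization, 14.1% with the 75th percentile, 0.478% with the spike-ins and 24.9% with the title letters. The share of all genes is not given for the other settings, so their counts show only how calls depend on processing. The cause of these changes in the calls was not tested. The deposited log2 values, normexp, the intensity trend, the methods' t-test, and other filters and probe choices gave 2 to 3 lower and 18 to 29 higher. The 7 paralog comparisons did not fall under the threshold in any alternative run. With so few arrays the exact permutation test could hardly go under it, so this says nothing about their stability. Signal over background limits COX4I2, COX7A1, COX8C and PPARGC1A.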
